A study of Mus musculus with 6 samples.

Results

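The genes described here are 10 components of bone morphogenetic protein (BMP) signalling: the ligands Bmp2, Bmp4 and Bmp7, the secreted antagonists and modulators Nog, Grem1 and Bmper, and the target genes Id1, Id2, Id3 and Smad6. They were picked by gene name as parts of the pathway, with earlier results of these data already known, and all 10 were found among the 19938 genes with a single symbol on the array, each through 1 probe set. The cells were mouse embryonic fibroblasts, cultures of connective tissue cells grown from embryos, of the genotypes Foxd1+/+, Foxd1+/- and Foxd1-/-. Foxd1 is a forkhead transcription factor gene. Every culture, whatever its genotype, had received retroviruses for Oct4, Sox2 and Klf4 to start reprogramming towards pluripotency and was taken on day 8, so that no culture without the viruses was available for comparison here. Each genotype had 2 arrays of total RNA, labelled biological replicates 1 and 2 and called array 1 and array 2 below. The labels do not say whether they came from separate embryos, and p-values measure only the spread between these arrays. The Foxd1 allele is not described in the labels.

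BMP ligands are secreted dimers that bind paired serine/threonine kinase receptors. The receptors phosphorylate Smad1, Smad5 and Smad9, which enter the nucleus with Smad4 and switch on target genes. Noggin (Nog) and gremlin (Grem1) bind ligands outside the cell and keep them from their receptors, whereas Bmper binds BMPs and can dampen or promote signalling depending on context. Id1, Id2 and Id3 are direct targets whose proteins hold a helix-loop-helix domain but no DNA-binding region, so that they tie up E proteins such as Tcf3, Tcf4 and Tcf12. Smad6 is an inhibitory Smad that the pathway induces against itself. In fibroblasts under reprogramming, BMP signalling is known to favour the early change from a mesenchymal to an epithelial state.

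The promoters of the target genes are shown because the pathway acts on them directly through Smads. Those of Id2, Id3 and Smad6 are given, since no entry was found for Id1. RefSeq promoter entries (build GRCm38.p6) were found for 6 of the 10 genes, namely Bmp4, Bmper, Grem1, Id2, Id3 and Smad6. Each sequence below runs 5′ to 3′ from 250 bases before the annotated transcription start to 30 bases after it. Capitals mark matches, on either strand, to the letters GGCGCC (a GC-rich element of the kind bound by BMP-activated Smads), GTCTAG and CAGAC (forms of the Smad-binding element) and GCCG.
Id2 (chr12:25096063-25096342, strand minus): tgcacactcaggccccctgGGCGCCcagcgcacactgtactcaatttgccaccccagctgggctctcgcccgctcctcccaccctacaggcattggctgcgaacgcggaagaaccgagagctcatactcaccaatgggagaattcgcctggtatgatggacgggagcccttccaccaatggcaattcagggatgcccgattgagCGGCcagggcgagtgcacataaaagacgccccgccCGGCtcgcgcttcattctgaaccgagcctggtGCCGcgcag
Id3 (chr4:136143572-136143851, strand plus): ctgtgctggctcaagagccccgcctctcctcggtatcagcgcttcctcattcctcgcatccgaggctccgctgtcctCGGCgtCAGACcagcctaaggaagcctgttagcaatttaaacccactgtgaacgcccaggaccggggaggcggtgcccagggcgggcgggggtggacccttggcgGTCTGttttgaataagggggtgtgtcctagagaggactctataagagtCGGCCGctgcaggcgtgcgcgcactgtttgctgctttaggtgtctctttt
Smad6 (chr9:64022030-64022309, strand minus): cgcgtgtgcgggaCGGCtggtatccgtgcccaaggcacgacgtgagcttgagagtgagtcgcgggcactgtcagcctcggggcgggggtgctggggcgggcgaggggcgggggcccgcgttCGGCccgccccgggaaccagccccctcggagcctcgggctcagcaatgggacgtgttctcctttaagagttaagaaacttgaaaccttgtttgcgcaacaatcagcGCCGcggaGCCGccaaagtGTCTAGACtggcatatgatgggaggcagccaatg
The Id2 window held 1 match to GGCGCC and 3 to GCCG, the Id3 window 2 to CAGAC and 3 to GCCG, and the Smad6 window 2 to GTCTAG, which overlap in a palindrome that begins 4 bases before the start, and 4 to GCCG. Of 32851 promoter windows of the same length, 10.9% held GGCGCC, 7.89% GTCTAG, 46.8% CAGAC and 57.2% GCCG, so that the last motifs in particular are common. These matches describe letters and not binding.

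The arrays were comparable in scale, with median intensity between 76.5 and 79.6 and a lowest value of 19.5. Foxd1 read 1907 and 1169 in Foxd1+/+, 1014 and 2074 in Foxd1+/- cells, and 189 and 213 in Foxd1-/-, so the loss was visible in Foxd1-/-, while array 2 labelled Foxd1+/- held more Foxd1 than array 2 labelled Foxd1+/+. That order goes against those labels. Every difference that involves Foxd1+/+ or Foxd1+/-, between genotypes or between array numbers, is that of the arrays as labelled. Fibroblast markers (12 of 12 measured) summed to between 30719 and 42602 on the 6 arrays, led by Vim and Col1a2. Endothelial markers (10 of 10) summed to between 1273 and 1427 and macrophage markers (10 of 11) to between 1152 and 1658. Smooth muscle or myofibroblast markers (8 of 8) summed to between 3752 and 6010. Single genes made up much of these sums: Tek alone read 868 to 1007, Lyz2 472 to 833 and Acta2 2282 to 3642. Cartilage and bone markers (9 of 10) summed to between 1136 and 1465 and pluripotency markers (10 of 10) to between 1932 and 4514. No marker was at 0, since no value lay under the lowest of 19.5. In such bulk RNA, fewer cells of a type and less RNA per cell cannot be told apart.

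**Figure D1:**
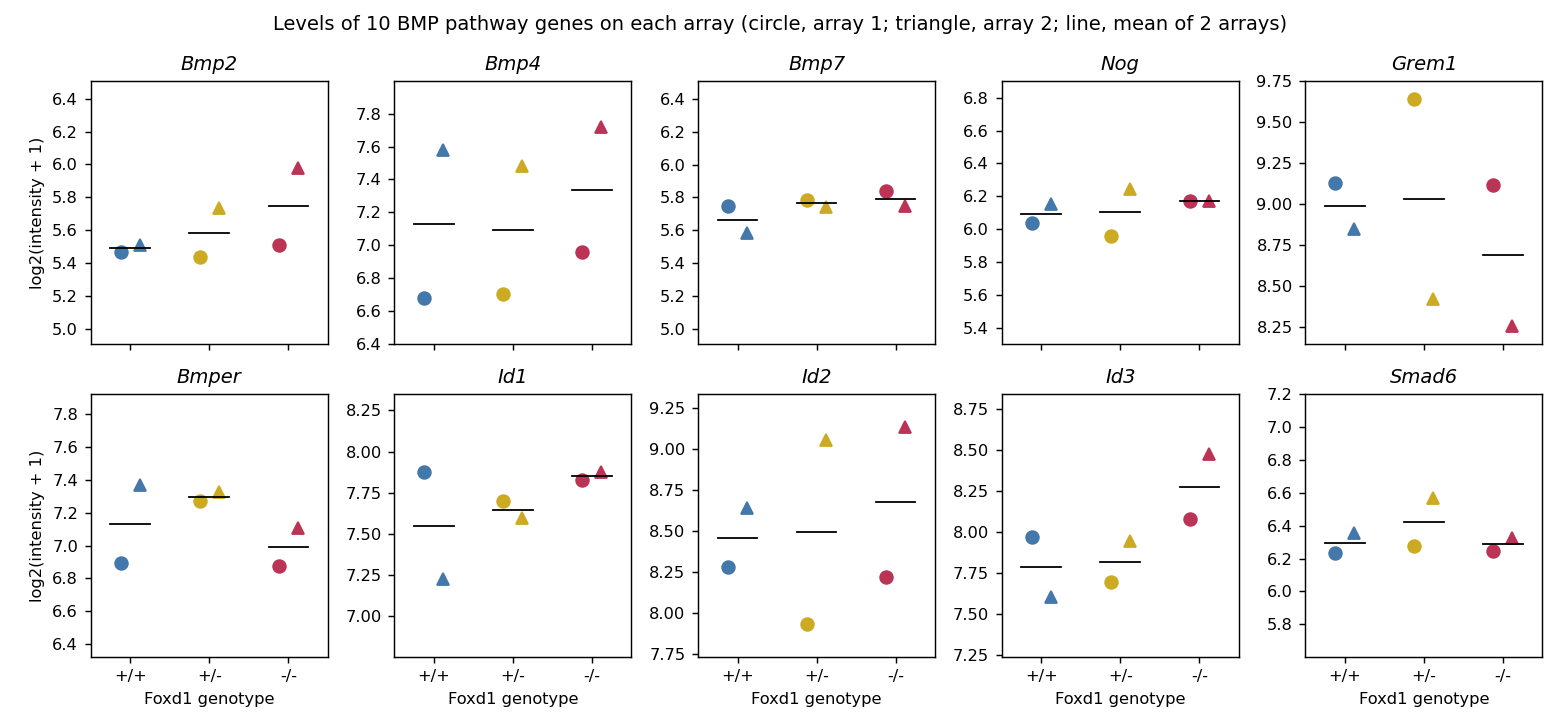
Levels of the 10 genes as log2(intensity + 1) on each of the 6 arrays, by Foxd1 genotype, with circles for array 1, triangles for array 2 and a line for the mean of the 2 arrays; every panel spans 1.6 log2 units. Bmp4 and Id2 are higher and Grem1 lower on array 2 of every genotype, and Id3 is higher on both Foxd1-/- arrays than on the other 4.

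Among the ligands, Bmp4, the BMP best known for its role in mesoderm and in reprogramming cultures, varied more between the arrays of a genotype than between genotypes. Its intensity was 101 and 190.2 in Foxd1+/+, 103 and 178 in Foxd1+/- cells, and 123 and 209.8 in Foxd1-/- on arrays 1 and 2. Array 2 was the higher in every genotype, and Foxd1-/- held the highest value among the arrays numbered 1 and again among those numbered 2, although the groups overlapped. Bmp2, a close relative, read 43.2 and 44.6 in Foxd1+/+, 42.3 and 52.2 in Foxd1+/- cells, and 44.5 and 62.2 in Foxd1-/-. Its highest value lay on array 2 of Foxd1-/-. Bmp7, a ligand of epithelia and kidney, ranged from 46.9 to 56.1 over the 6 arrays, with array 1 the higher in each genotype. Bmp2, Bmp7 and the antagonist Nog lay below the median intensity of the array throughout, and since no detection call accompanies the values, how far such dim signals stand above background is unknown.

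Of the secreted antagonists, gremlin ran opposite to Bmp4. Grem1 read 559 and 459 in Foxd1+/+, 797 and 342 in Foxd1+/- cells, and 555 and 306 in Foxd1-/-, lower on array 2 in every genotype and lowest on array 2 of Foxd1-/-. Nog read 64.5 and 70.2 in Foxd1+/+, 61.1 and 74.9 in Foxd1+/- cells, and 71.1 on each Foxd1-/- array. Both Foxd1-/- values of Nog lay above both of Foxd1+/+, closely so for array 2 of Foxd1+/+, and within the range of Foxd1+/-. Bmper read 118 and 164 in Foxd1+/+, 154 and 159 in Foxd1+/- cells, and 117 and 137 in Foxd1-/-. The Foxd1-/- arrays held less Bmper than either Foxd1+/- array and overlapped those of Foxd1+/+.

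The Id genes did not share a single pattern. Id3 read 249.6 and 194 in Foxd1+/+, 206 and 245 in Foxd1+/- cells, and 269 and 355 in Foxd1-/-, and was the only member whose Foxd1-/- arrays both lay above all 4 others, a separation in either direction that 10.8% of all genes showed. Id1 read 233 and 149 in Foxd1+/+, 206 and 192 in Foxd1+/- cells, and 226 and 234 in Foxd1-/-. Its lowest value lay on array 2 of Foxd1+/+, and array 1 of Foxd1+/+ lay between the Foxd1-/- arrays. Id2 read 309.7 and 397 in Foxd1+/+, 244 and 530.4 in Foxd1+/- cells, and 297 and 561 in Foxd1-/-, higher on array 2 throughout like Bmp4. Smad6 lay between 74.1 and 80.9 on 5 arrays and at 94.1 on array 2 of Foxd1+/-.

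The comparison of Foxd1-/- with Foxd1+/+ asks what the loss of both copies of Foxd1 does in these cells. Here 7 of the 10 members were higher in Foxd1-/- and 3 lower, with a median log2 difference of 0.17, beside 0.0032 and 51.8% higher over all genes. With 1 array left out, this median ranged from 0.03 without Foxd1+/+ replicate 1 to 0.20 without Foxd1-/- replicate 1. Id3 differed most, by 0.49 ± 0.20 (log2 difference of intensity + 1 ± SE, n = 2 arrays per genotype), a 1.40-fold higher level with a 95% interval from -0.03 to 1.01. Id1 differed by 0.30 ± 0.22, Bmp2 by 0.26 ± 0.19, Id2 by 0.22 ± 0.48, Bmp4 by 0.21 ± 0.46, Bmp7 by 0.13 ± 0.08 and Nog by 0.08 ± 0.11. Leaving out Foxd1-/- replicate 2 gave 0.02 for Bmp2 and leaving out Foxd1-/- replicate 1 gave 0.49, while Id1 gave -0.02 without Foxd1+/+ replicate 2. Grem1 differed by -0.30 ± 0.49, Bmper by -0.14 ± 0.18 and Smad6 by -0.0076 ± 0.12. None of these passed the threshold of 0.05 for adjusted p: limma called 0 of 19938 genes (0%), with a smallest adjusted p of 0.99985 over all genes. Foxd1 itself, at -2.89 ± 0.41 (limma unadjusted p = 0.00111), did not pass either, so the absence of calls does not show equal levels. At an unadjusted p under 0.05 there were 0 members and 2.11% of all genes, and Id3 had an unadjusted limma p of 0.0588. The arrays of the 2 genotypes did not overlap for Id3 and Nog, 2 of 10 members, beside 25.7% of all genes.

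The 2 arrays of a genotype differed in the same way across genotypes for many genes, and a fit with the replicate number as a block takes that out. With this block the difference of Bmp4 kept its size, 0.21, and its SE fell from 0.46 to 0.06, with an unadjusted limma p of 0.0215 and an adjusted p of 0.609. Bmp4 was then the single member at an unadjusted p under 0.05, where 7.54% of all genes were, and 0% passed after adjustment (smallest limma adjusted p 0.489). Among same-numbered arrays, Id3 differed by 0.11 on arrays 1 and 0.87 on arrays 2, Bmp4 by 0.28 and 0.14, Id1 by -0.05 and 0.65, and Grem1 by -0.01 and -0.59 (log2 difference of single arrays). The Id3 difference was thus the larger on arrays 2 and the Bmp4 difference the larger on arrays 1. Bmp2, Bmp4, Bmp7 and Id3, 4 of the 10 members, were highest in Foxd1-/- on both numbers, as were 16% of all genes. The lead was slight for Bmp7 on arrays 2 (0.0024 over Foxd1+/-) and for Bmp2 on arrays 1 (0.04 over Foxd1+/+, log2 difference).

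Markers of cell types differed between these genotypes too. From Foxd1+/+ to Foxd1-/-, 1 of 10 macrophage markers was higher (median -0.15) with Lyz2, which encodes lysozyme, at -0.66 ± 0.12. Of 8 smooth muscle or myofibroblast markers, 0 were higher (median -0.27), with Acta2 at -0.25 ± 0.28. Of 12 fibroblast markers, 11 were higher (median 0.27), with Col1a2 at 0.23 ± 0.10, while Vim, the brightest, differed by -0.08 ± 0.08. Endothelial markers were higher in 3 of 10 (median -0.03), and cartilage and bone markers in 6 of 9 (median 0.04). Pluripotency markers were higher in 1 of 10 (median -0.27), with Nanog at -0.48 ± 0.24. None passed in limma, and the part of cell make-up in the values of the BMP genes was not tested.

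The comparison of Foxd1-/- with Foxd1+/- asks what the remaining copy does, on the same Foxd1-/- arrays. Again 7 members were higher and 3 lower in Foxd1-/-, with a median log2 difference of 0.12 (-0.0027 and 48.6% higher over all genes). Without Foxd1+/- replicate 1, 5 members were higher and the median turned to -0.03, and without Foxd1+/- replicate 2, 8 were higher and it was 0.18. Id3 differed by 0.46 ± 0.20, Bmp4 by 0.25 ± 0.46, Id1 by 0.20 ± 0.22, Id2 by 0.18 ± 0.48 and Bmp2 by 0.16 ± 0.19, and Grem1 by -0.34 ± 0.49, Bmper by -0.31 ± 0.18 and Smad6 by -0.14 ± 0.12 (log2 difference ± SE, n = 2 arrays per genotype). The arrays did not overlap for Id1, Id3 and Bmper, 3 of 10 members, beside 25.6% of all genes. No gene passed the limma threshold (0%), whether or not the block was used, and 0 members had an unadjusted p under 0.05 beside 2.31% of genes. With the block, Bmp4 (unadjusted p = 0.0116) and Bmper (0.0401) did in limma, beside 7.56% of genes, and their adjusted p values were 0.575 and 0.635. Cell markers differed here as well: 9 of 12 fibroblast markers were higher in Foxd1-/- (median 0.26), and so were 1 of 10 macrophage markers (median -0.22), 1 of 8 smooth muscle or myofibroblast markers (median -0.33) and 2 of 10 pluripotency markers (median -0.20). Endothelial markers were higher in 2 of 10 and cartilage and bone markers in 2 of 9 (each median -0.06). None passed in limma, and their part in the result was not tested.

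Between Foxd1+/- and Foxd1+/+, which asks for the effect of losing 1 copy, 9 members were higher and 1 lower, with a median log2 difference of 0.07, beside 0.0024 and 51.6% higher over all genes. Without Foxd1+/- replicate 2, only 4 members were higher and the median was -0.04, and without Foxd1+/- replicate 1 it was 0.18. The largest differences were Bmper at 0.17 ± 0.18, Smad6 at 0.13 ± 0.12 and Bmp7 at 0.10 ± 0.08, and the Id genes differed by 0.10 ± 0.22 (Id1), 0.04 ± 0.48 (Id2) and 0.03 ± 0.20 (Id3; SE, n = 2 arrays per genotype). The intervals stay wide, reaching from -1.24 to 1.16 for Bmp4. No member separated the 2 genotypes, as 20.3% of all genes did, and limma called 0% in either fit, with 0.968% of genes at an unadjusted p under 0.05 without and 2.01% with the block and 0 members in both.

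Against the mean of the other 2 genotypes, Foxd1-/- held more Id3 by 0.47 ± 0.17 (log2 difference ± SE, 2 arrays against 4; limma unadjusted p = 0.0418, adjusted p = 1.0). Id3 was the single member at an unadjusted p under 0.05, beside 2.74% of genes. With the block, Id3 (0.0365) and Bmp4 (0.00905) were, beside 9.21% of genes, at limma adjusted p values of 0.504 and 0.392, and 0% of genes passed in either fit. The Id3 difference ranged from 0.28 without Foxd1-/- replicate 2 to 0.67 without Foxd1-/- replicate 1. For a pair of genotypes, an exact permutation test of 2 arrays against 2 could not give a p below 0.333.

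**Figure D2:**
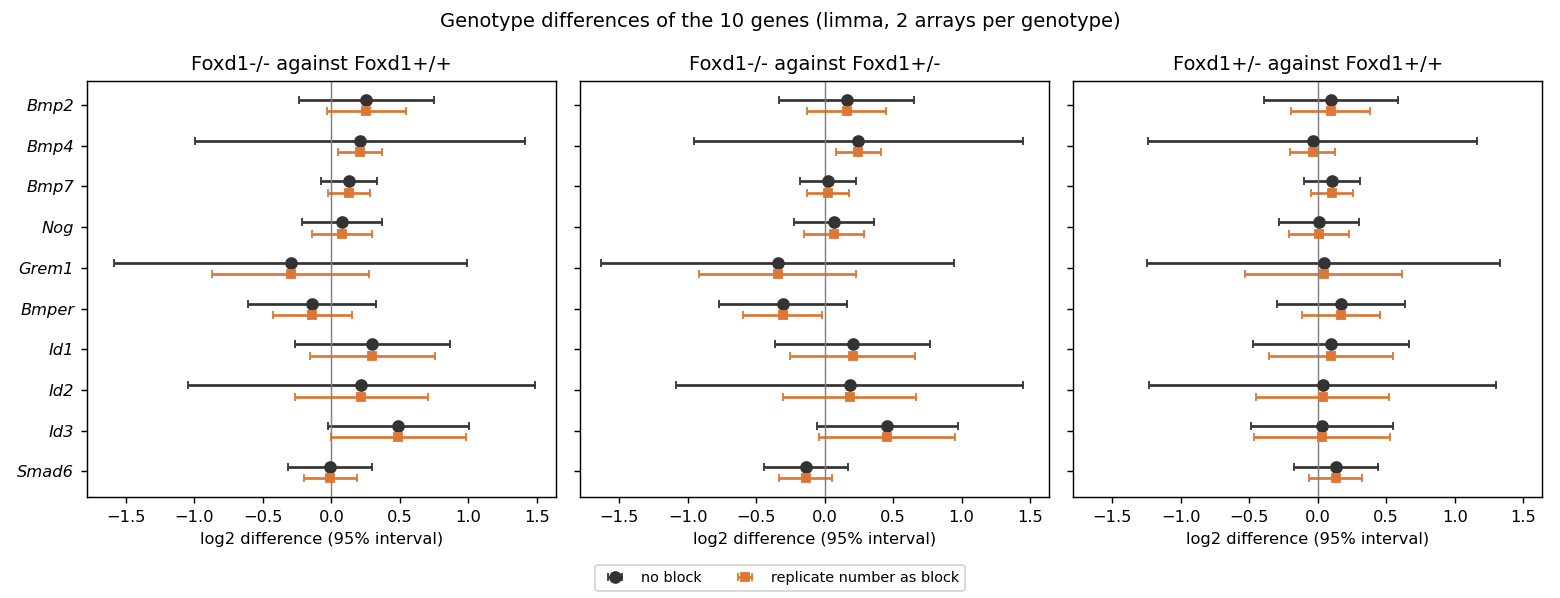
Log2 differences of the 10 genes for the 3 pairs of genotypes, with 95% intervals from limma, without a block (black circles) and with the replicate number as a block (orange squares), 2 arrays per genotype. Points are the same in both fits; the block narrows the intervals of Bmp4, Grem1 and Id2 most, and Id3 is the farthest from 0 in both comparisons of Foxd1-/-.

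The arrays numbered 2 differed from those numbered 1 within each genotype, and here members passed the test. Bmp4 was higher on array 2 by 0.81 ± 0.05 (log2 difference ± SE, 3 genotypes), a 1.76-fold higher level, with 0.90 in Foxd1+/+, 0.78 in Foxd1+/- and 0.76 in Foxd1-/- (limma adjusted p = 0.00595). Id2 rose by 0.80 ± 0.15, with 0.36, 1.12 and 0.91 in the same order (limma adjusted p = 0.046). Both were higher on array 2 in 3 of 3 genotypes. Grem1 differed as much in the other direction, by -0.79 ± 0.18, with -0.28, -1.22 and -0.86, and missed the threshold (limma adjusted p = 0.0682). The labels do not say what a replicate number marks, and a shared culture, virus batch or array run cannot be told apart here.

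The other members moved less between the numbers. Bmp2 differed by 0.27 ± 0.09, Bmper by 0.25 ± 0.09 and Smad6 by 0.17 ± 0.06, each higher on array 2 in every genotype and none past the threshold after adjustment (limma adjusted p = 0.148, 0.168 and 0.175). Bmp7 was lower on array 2 in every genotype by a mean of 0.10 in size (-0.10 ± 0.05). Id1 and Id3 did not follow Id2: Id1 differed by -0.65 in Foxd1+/+, -0.10 in Foxd1+/- and 0.05 in Foxd1-/-, and Id3 by -0.36, 0.25 and 0.40. In both genes the order of the arrays in Foxd1+/+ was opposite to that in Foxd1-/-. Thus 2 of the 10 members passed, both higher, beside 8.85% of all genes in either direction, 4.85% higher and 4% lower. At an unadjusted p under 0.05 there were 6 members beside 25.5% of genes, and 7 members lay on the same side in all 3 genotypes beside 45.4% of genes.

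**Figure D3:**
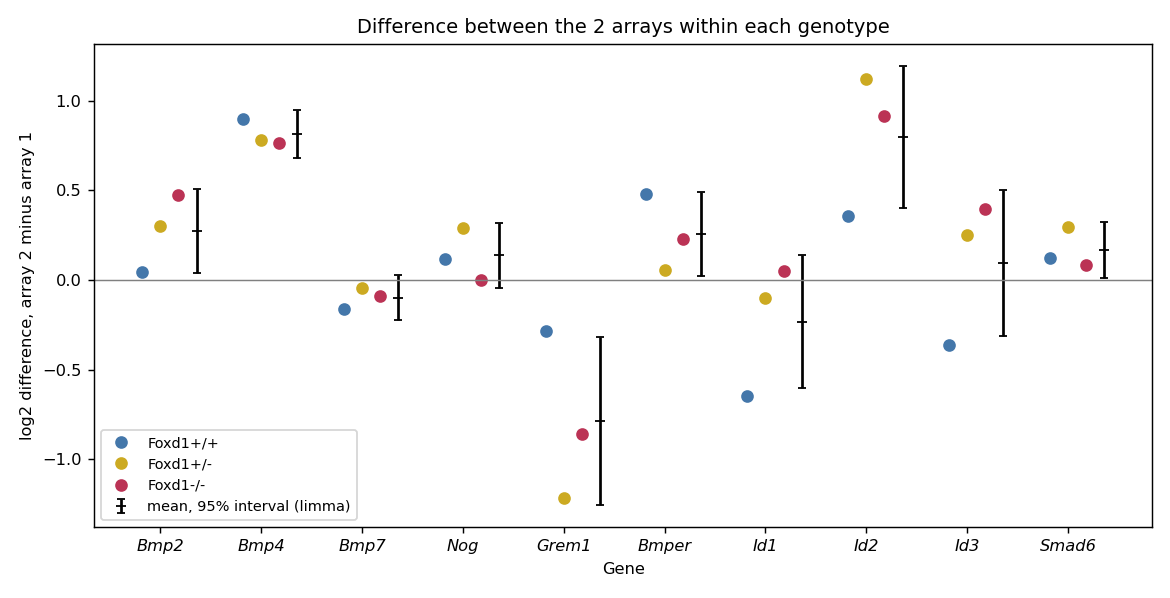
Log2 difference between array 2 and array 1 of each genotype for the 10 genes (coloured points, 1 per genotype), with the mean and its 95% interval from limma in black. Bmp4 and Id2 lie above 0 and Grem1 below 0 in all 3 genotypes, while Id1 and Id3 change side between Foxd1+/+ and Foxd1-/-.

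The calls of Bmp4 and Id2 were both lost without the Foxd1-/- pair of arrays, and that of Id2 also without the Foxd1+/- pair. Leaving out either Foxd1-/- array takes that genotype out of this comparison, and then limma called 0 of 19938 genes (3192 at an unadjusted p under 0.05), with an adjusted p of 0.0567 for Bmp4 and 0.232 for Id2, while the differences stayed at 0.84 and 0.74. Leaving out either Foxd1+/- array gave 0.0132 for Bmp4 and 0.0777 for Id2, and leaving out either Foxd1+/+ array gave 0.0131 for Bmp4, 0.0125 for Id2 and 0.0182 for Grem1. Grem1 also passed when dim genes were left out (0.0373 by limma) and with an intensity trend in limma (0.0418). Id2 missed the threshold with an offset of 16 (0.0644 by limma) and after quantile normalization (0.0521).

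Cell markers differed between the numbers as well. On array 2, 11 of 12 fibroblast markers were higher (median log2 difference 0.33, 5 past the limma threshold). Of the pluripotency markers, 0 of 10 were higher (median -0.58, 3 past it). The other lists held 8 of 10 higher for macrophage, 2 of 8 for smooth muscle or myofibroblast, 4 of 10 for endothelial and 4 of 9 for cartilage and bone. In that order, 1, 1, 1 and 2 of these markers passed in either direction. Over all genes, 49.3% were higher on array 2 and 8.85% passed. Sox2 was lower by 0.55 in size (-0.55 ± 0.04, limma adjusted p = 0.00808). Pou5f1, the Oct4 gene, differed by -1.16 ± 0.36 and Klf4 by 0.09 ± 0.05, and neither passed. Whether the values of Sox2, Pou5f1 and Klf4 come from the viruses or from the cells' own genes is unknown. Summed fibroblast markers were 30719 on array 1 and 38636 on array 2 of Foxd1+/+, 32109 and 37210 for Foxd1+/-, and 35633 and 42602 for Foxd1-/-. The part of these shifts in the values of Bmp4, Id2 and Grem1 was not tested.

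Beyond the 10 members, 64 further genes of the pathway were measured, from lists of ligands, modulators, receptors, intracellular regulators and targets. In Foxd1-/- against Foxd1+/+, 38 were higher and 26 lower with a median log2 difference of 0.03, and 0 passed in limma, with 1 at an unadjusted p under 0.05 (2.11% of all genes). That gene was Gata3, a target in several tissues, which read 178 and 163 in Foxd1+/+, 158 and 156 in Foxd1+/- cells, and 149.3 and 149.9 in Foxd1-/-. Its arrays did not overlap between any pair of genotypes (-0.18 ± 0.06 in Foxd1-/- against Foxd1+/+, limma unadjusted p = 0.035). Gata3 is named for its small p in this same comparison. Foxd1-/- separated from Foxd1+/+ for 25.7% of all genes and from Foxd1+/- for 25.6%, and Foxd1+/- from Foxd1+/+ for 20.3%. The share of genes that separate in every pair was not counted. The arrays of Foxd1-/- and Foxd1+/+ did not overlap for 16 of the 64, beside 25.7% of all genes. Sostdc1, a secreted BMP and Wnt antagonist, read 829 and 1115 in Foxd1+/+, 922 and 883 in Foxd1+/- cells, and 1128.5 and 1304 in Foxd1-/-, a difference of 0.33 ± 0.16 from Foxd1+/+. Both Foxd1-/- arrays lay above all others, a separation in either direction that 7 of the 64 and 10.8% of all genes showed. The homeobox gene Dlx3 read 67.2 and 67.5 in Foxd1+/+, 77.7 and 76.1 in Foxd1+/- cells, and 64.3 and 58.8 in Foxd1-/-, so that Foxd1+/- was the highest. These values lay near or below the median intensity of the array. Among modulators 13 of 17 were higher in Foxd1-/- (median 0.10), among ligands 6 of 12, among receptors 7 of 12, among Smads and intracellular regulators 7 of 13 and among targets 5 of 12. Examples are the ligand genes Bmp15 (-0.20 ± 0.11), Bmp5 (0.18 ± 0.11) and Gdf10 (0.30 ± 0.24), the Smad corepressor gene Skil (-0.16 ± 0.10), the signal-carrying Smad9 (-0.10 ± 0.08) and Smad4 (0.06 ± 0.05), the chordin-like antagonist gene Chrdl1 (0.35 ± 0.23), the modulator gene Kcp (0.20 ± 0.09) and Atoh8, a helix-loop-helix target gene (0.27 ± 0.11), none of which passed in limma.

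Between array numbers, 12 of the 64 passed in limma, 11 higher and 1 lower on array 2, beside 8.85% of all genes. Of the ligands outside the 10 members, Bmp6 and Gdf5 passed. Bmp6 rose by 0.66 ± 0.07 (limma adjusted p = 0.0138), and read 177 and 309 in Foxd1+/+, 185 and 260.0 in Foxd1+/- cells, and 176 and 283 in Foxd1-/-. Gdf5, a joint and cartilage ligand, rose by 0.36 ± 0.06. Of the modulators, Nbl1 rose by 0.51 ± 0.06, Twsg1, which binds BMPs together with chordin, by 0.49 ± 0.04, and the chordin-cleaving protease gene Bmp1 by 0.31 ± 0.05. Among receptors all 12 were higher on array 2, beside 49.3% of all genes. Of the receptors, 3 passed: the co-receptor Rgma (0.63 ± 0.07), the type I receptor Acvrl1 (0.38 ± 0.05) and the accessory receptor endoglin, Eng (0.26 ± 0.04). The zinc finger cofactor Zfp423 rose by 0.47 ± 0.05. Id4, the remaining Id family gene, rose by 0.73 ± 0.08 and Gata2 by 0.32 ± 0.05, whereas Junb fell by 0.30 on the log2 scale (SE 0.06). Id4 read 396 and 741 in Foxd1+/+, 425 and 717 in Foxd1+/- cells, and 393 and 569 in Foxd1-/-, and thus followed Id2 and not Id1 or Id3 in its direction on array 2 of Foxd1+/+.

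**Figure D4:**
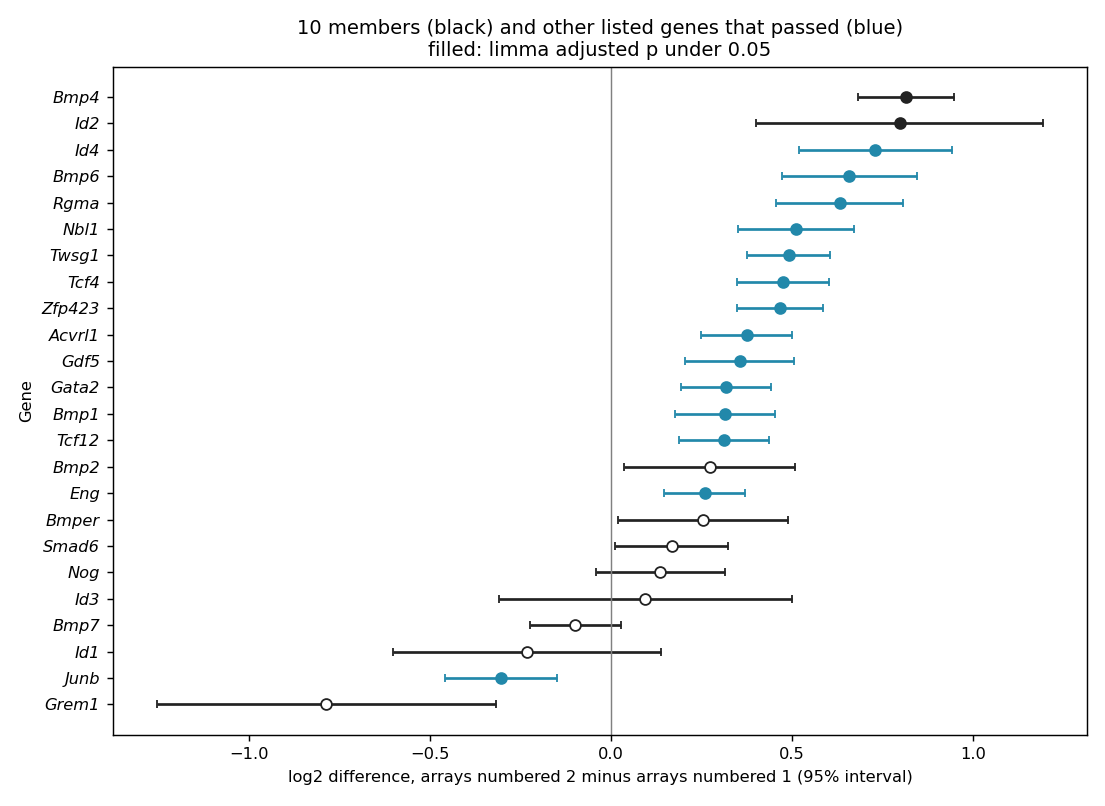
Log2 difference between arrays numbered 2 and arrays numbered 1 with 95% intervals (limma, 3 genotypes) for the 10 members (black) and for the other pathway genes and E proteins that passed (blue); filled points have an adjusted p under 0.05. Bmp4 and Id2 lead at 0.81 and 0.80, followed by Id4 at 0.73, and Grem1 is the lowest at -0.79. Blue genes are shown because they passed, so their distance from 0 is no comparison with the members.

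Of the E proteins, which Id proteins bind, Tcf4 rose by 0.47 ± 0.05 on array 2 (limma adjusted p = 0.0123) and Tcf12 by 0.31 ± 0.05 (0.0288). Tcf3 differed by 0.00064 ± 0.09. Thus 2 of the 3 passed, beside 8.85% of all genes. In Foxd1-/- against Foxd1+/+ the 3 E proteins differed by 0.34 (Tcf4), 0.07 (Tcf3) and 0.03 (Tcf12), and none passed in limma.

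Early epithelial genes, of which 15 were measured, went in both directions. In Foxd1-/- against Foxd1+/+, 6 were higher and 9 lower (median -0.02), and 0 passed in limma. The keratin gene Krt18 differed by 0.28 ± 0.10, the desmosome gene Dsp by 0.46 ± 0.24 and Grhl2, a transcription factor of epithelia, by -0.35 ± 0.13. Grhl2 read 62.2 and 57.2 in Foxd1+/+, 55.1 and 69.6 in Foxd1+/- cells, and 49.4 and 44.2 in Foxd1-/-, the lowest values on both Foxd1-/- arrays. All lay below the median intensity of the array. A separation of Foxd1-/- from all others, in either direction, was seen for 3 of the 15 and 10.8% of all genes. Between the numbers, 7 were higher and 8 lower on array 2 (median -0.02). The claudin gene Cldn4 fell by 0.35 on the log2 scale (SE 0.06, limma adjusted p = 0.0398). It was the only 1 of the 15 that passed, beside 8.85% of all genes.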

How the data were processed

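Total RNA from 6 cultures (3 genotypes, 2 arrays each, day 8) was labelled with biotin for Affymetrix whole-transcript arrays (per the labels' protocols). The authors deposited linear intensity values for 28856 probe sets. Background correction, normalization and probe set summary, not given in the sources used here, could alter small differences. The platform's annotation gave the names: 21789 had 1 symbol, 1621 several and 5446 none listed. The highest-mean probe set per gene was kept (19938 genes), with no filter on dim values; 8 of the 10 members reached an intensity of 64 on 2 or more arrays. The scale was log2(intensity + 1), on which small levels show slightly reduced differences. All 6 arrays entered limma 3.58.1 (R 4.3.3; lmFit and eBayes) with a mean for each genotype and Benjamini-Hochberg adjustment over all genes. Array numbers were compared with genotype as a term. The code was tested on simulated data. Figures used matplotlib 3.10.9.

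Differences between array 2 and array 1 correlated across genes between genotypes (r = 0.55, 0.73 and 0.73 for the 3 pairs; genes are not independent). The labels do not say that the numbers pair the arrays; this rests on the data, and with 2 numbers it is weak. The number was therefore used as a block in an alternative fit.

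The members, gene lists and tests were chosen with earlier results of these data known. Named beside the members were Foxd1, Pou5f1, Sox2 and Klf4, from each list up to 3 genes by smallest p in Foxd1-/- against Foxd1+/+ plus any that passed, and markers of highest mean. Alternatives were an offset of 16 or none, a filter on dim genes, quantile normalization, median centring, the mean of probe sets, an intensity trend, only the genotypes compared, the block, and each array left out.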

Additional observations from a re-analysis of the deposited data

How the results depend on the processing

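With all arrays kept, 405 of 410 alternative values of the members' log2 differences kept their direction and their side of the adjusted threshold of 0.05. The exceptions were Id2 and Grem1 between array numbers, given above, and Nog in Foxd1+/- against Foxd1+/+, which turned to -0.0105 after quantile normalization; the cause was not tested. Many of these values could not turn direction. The replicate block, the intensity trend, the fit of only the genotypes compared and the filter on dim genes leave a difference itself unchanged. So does the mean of probe sets, as each member had 1 probe set. The count of 405 is therefore no measure of stability to processing. The replicate block changed no call of a member, and limma called 0 genes between genotypes with the replicate block as without it. It moved the genes at an unadjusted p under 0.05 from 421 to 1503 in Foxd1-/- against Foxd1+/+ and from 460 to 1507 against Foxd1+/-. Between array numbers the count of called genes, 1764, ranged from 0 to 1389 with 1 array left out. For a pair of genotypes, leaving out an array of the third genotype cannot change the difference. Between array numbers, leaving out either array of a genotype gives the same value. The fixed values of the pairs lower the share that turned. With 1 array left out, 40 of 300 differences turned direction, and the cause was not tested. In Foxd1-/- against Foxd1+/+ they ran from -0.24 to 0.66 for Bmp4, from -0.38 to 0.10 for Bmper, from -0.73 to 0.13 for Grem1, from -0.023 to 0.62 for Id1, from -0.24 to 0.68 for Id2, from -0.069 to 0.054 for Smad6. In Foxd1-/- against Foxd1+/- they ran from -0.076 to 0.40 for Bmp2, from -0.14 to 0.64 for Bmp4, from -0.019 to 0.071 for Bmp7, from -0.95 to 0.27 for Grem1, from -0.38 to 0.74 for Id2, from -0.074 to 0.22 for Nog, from -0.29 to 0.011 for Smad6. In Foxd1+/- against Foxd1+/+ they ran from -0.054 to 0.24 for Bmp2, from -0.49 to 0.41 for Bmp4, from -0.071 to 0.41 for Bmper, from -0.56 to 0.65 for Grem1, from -0.23 to 0.42 for Id1, from -0.52 to 0.60 for Id2, from -0.15 to 0.21 for Id3, from -0.14 to 0.15 for Nog, from -0.019 to 0.28 for Smad6. In Foxd1-/- against the mean of the others they ran from -0.028 to 0.44 for Bmp2, from -0.15 to 0.61 for Bmp4, from -0.75 to 0.11 for Grem1, from -0.26 to 0.66 for Id2, from -0.15 to 0.0018 for Smad6. Between array numbers they ran from -0.057 to 0.32 for Id3. With 2 arrays per genotype and no detection calls, the precision is low, and how far Bmp2, Bmp7 and Nog stood above background is unknown. The same holds for Bmp5, Bmp15, Kcp, Smad9 and Grhl2, below the median intensity of the array throughout, and for Dlx3, near or below it. Gdf10, Atoh8, Chrdl1 and Smad6 lay below that median on some arrays and above it on others, with the same limit on the dim ones.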
